A study of Rattus norvegicus with 4 samples.

Results

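The genes described here are the regulators of G protein signalling (RGS genes) and the subunits of heterotrimeric G proteins of rat nucleus accumbens. They were taken by symbol: every listed gene whose symbol starts with Rgs and a digit, or with Gna, Gnb or Gng and names a G protein subunit. This gave 54 rows with 53 symbols of 30560 listed genes, because Gnas, the stimulatory alpha subunit, is listed under 2 identifiers (ENSRNOG00000047374 and ENSRNOG00000025889). The rows hold 17 alpha, 5 beta and 9 gamma subunit rows, 21 RGS genes and 2 anchors of the R7 group of RGS proteins. Gng7, Gng10, Gng13 and Gngt2 were not matched by symbol and were not analysed here.

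The nuclei came from Sprague-Dawley rats, 90 to 120 days old, and were measured by single-nucleus RNA-seq. Rats were given cocaine (20 mg/kg) or saline by intraperitoneal injection once a day for 7 days, and the tissue was collected 1 h after the last injection. Each of 4 libraries (saline female, saline male, cocaine female and cocaine male) held nuclei of 4 rats pooled from a 2 mm punch centred on the accumbens core, so that individual rats cannot be told apart and spread between rats within a pool was not measured. The labels name no transgene or altered genotype. Per the labels, the libraries differed in treatment and sex.

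A receptor of the G protein-coupled class acts by loading GTP onto an alpha subunit, which then separates from its beta and gamma partners. Gs and Golf alpha subunits (Gnas, Gnal) raise cyclic AMP, the i/o class lowers it or opens potassium channels through beta-gamma, and the q/11 class activates phospholipase C beta. RGS proteins speed GTP hydrolysis and so shorten the signal; those of the R7 group work as complexes with Gnb5 and a membrane anchor. In striatum, Golf couples dopamine D1 and adenosine receptors to adenylyl cyclase, and Rgs9 is a long known striatal member.

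Of 43 members with an entry in the RefSeq promoter table (build GRCr8, not the build of the counts), 5 are shown, each with the 250 bases before the annotated transcript start, 5′ to 3′. They belong to the members on which the results turn most: Rgs9 of the medium spiny neurons, Gng4 of the eccentric spiny neurons, Gna15 and Rgs1 of microglia, and Gna14, the member called with cocaine. Capitals mark matches, on either strand, to 3 motifs. The core of the cyclic AMP response element was searched as TGACG, letters bound by CREB family factors. The core motif of ETS family factors was searched as GGAAGT, and a match on the minus strand appears as its reverse complement. The TATA box, which positions the polymerase, was searched as TATAAA.
Rgs9 (chr10:94770388-94770637, minus strand): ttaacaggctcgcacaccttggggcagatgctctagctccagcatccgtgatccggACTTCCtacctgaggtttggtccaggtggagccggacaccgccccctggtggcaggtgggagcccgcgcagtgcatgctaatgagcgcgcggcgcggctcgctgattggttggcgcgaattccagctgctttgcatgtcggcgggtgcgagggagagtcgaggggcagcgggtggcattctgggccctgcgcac
Gng4 (chr17:93432945-93433194, plus strand): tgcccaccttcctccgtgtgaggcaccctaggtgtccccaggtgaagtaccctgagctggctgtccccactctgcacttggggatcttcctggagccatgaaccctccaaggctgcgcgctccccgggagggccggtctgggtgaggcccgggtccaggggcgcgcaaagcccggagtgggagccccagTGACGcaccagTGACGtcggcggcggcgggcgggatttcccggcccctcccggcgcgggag
Gna15 (chr7:8835374-8835623, plus strand): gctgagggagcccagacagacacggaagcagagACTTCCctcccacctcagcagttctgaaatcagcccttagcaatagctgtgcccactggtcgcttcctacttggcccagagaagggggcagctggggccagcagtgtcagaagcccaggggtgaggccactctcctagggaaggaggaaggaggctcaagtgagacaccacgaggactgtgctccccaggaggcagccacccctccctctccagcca
Rgs1 (chr13:58573188-58573437, minus strand): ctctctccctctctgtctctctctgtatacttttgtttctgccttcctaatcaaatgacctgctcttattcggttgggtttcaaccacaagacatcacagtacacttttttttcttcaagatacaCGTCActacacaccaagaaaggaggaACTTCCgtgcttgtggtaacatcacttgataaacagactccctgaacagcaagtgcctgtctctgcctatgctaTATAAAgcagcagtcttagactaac
Gna14 (chr1:223141552-223141801, plus strand): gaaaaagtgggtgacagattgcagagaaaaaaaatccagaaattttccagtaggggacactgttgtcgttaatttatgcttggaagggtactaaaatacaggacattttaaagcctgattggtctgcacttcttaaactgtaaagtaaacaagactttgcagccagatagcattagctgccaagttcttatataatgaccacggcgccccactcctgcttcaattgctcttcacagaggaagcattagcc
The Gng4 window held 2 TGACG matches, starting 61 and 50 bases before the start, whereas the Gna14 window held none of the letters searched. TGACG was found in 18.2% of all 33469 promoter windows of this length and in 10 of the 43 member windows. GGAAGT was found in 19.2% of all windows and in 8 member windows, including Rgs9, Gna15 and Rgs1. TATAAA was found in 12.9% of all windows and in 6 member windows. The complete element TGACGTCA, which contains the core, was found in 1.59% of all windows and among members in Gnao1 alone. ACAAAG, a SOX core, was in 16.3% of all windows and among members in Rgs3 alone. A match is a description of the letters and not a measured binding site.

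The 4 libraries held 6213 to 7265 barcodes and 31484217 to 40737786 unique molecular identifiers (UMIs, counted RNA molecules), and 24843 of 26228 barcodes were kept. Pairs of libraries shared 10 to 18 barcode sequences. Nuclei were assigned to types one by one from marker genes that include no member. The gates took 3856 D1-type medium spiny neurons (D1-MSN, marked by Drd1), 3381 D2-MSN (marked by Drd2), 1106 eccentric MSN (a smaller class marked by Grm8, Chst9, Otof or Casz1), 213 Sst and 235 Pthlh interneurons, 1709 astrocytes, 6722 oligodendrocytes, 1031 oligodendrocyte precursors and 750 microglia. No single gate was met by 5409 nuclei, and 736 D1-MSN and 164 D2-MSN lay at the least number of D1 or D2 marker UMIs that the gate allows. The summed D1-MSN marker list reached 733 CPM (UMIs of a gene per 1e6 UMIs of the sum) in D1-MSN and 7.99 CPM in D2-MSN, and the D2-MSN list 1148 CPM in D2-MSN and 9.21 CPM in D1-MSN. In the median D1-MSN nucleus the marker lists of D2-MSN, eccentric MSN, oligodendrocytes and microglia were all at 0 UMIs and the astrocyte list was at 4 UMIs. Median depth ran from 1361.5 UMIs per nucleus in microglia to 8030 in D1-MSN. Cholinergic interneurons, glutamatergic neurons and vascular nuclei had fewer than 25 nuclei in at least 1 library and entered no test.

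Levels below are CPM of UMIs summed per library and type and scaled over all tested types, always in the order saline female, saline male, cocaine female and cocaine male. A level is a share of a type's RNA, so less of one RNA and more of the others cannot be told apart. Because a gene's length and sequence also set its UMI yield, each gene is compared between types and not with other genes. Shares of a family's UMIs are not corrected for this yield, so they too are read between types only. Of the 54 rows, 39 passed the filter on low counts and were tested, each type against the mean of the other 8 types. The other 15 had 0 UMIs (Gnat3 and Gngt1), 1 to 10 UMIs (Gng14, Rgs21 and Rgs9bp) or more UMIs without passing this filter (Gnat1, Gnat2, Gnaz, Gnb3, Gng5, Gng11, Rgs4, Rgs5, Rgs13 and Rgs18). Of these, Rgs4, Gnaz and Gnb3 passed the separate filter of the cocaine tests in 2 types each, and Gng11 in 1.

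**Figure D1:**
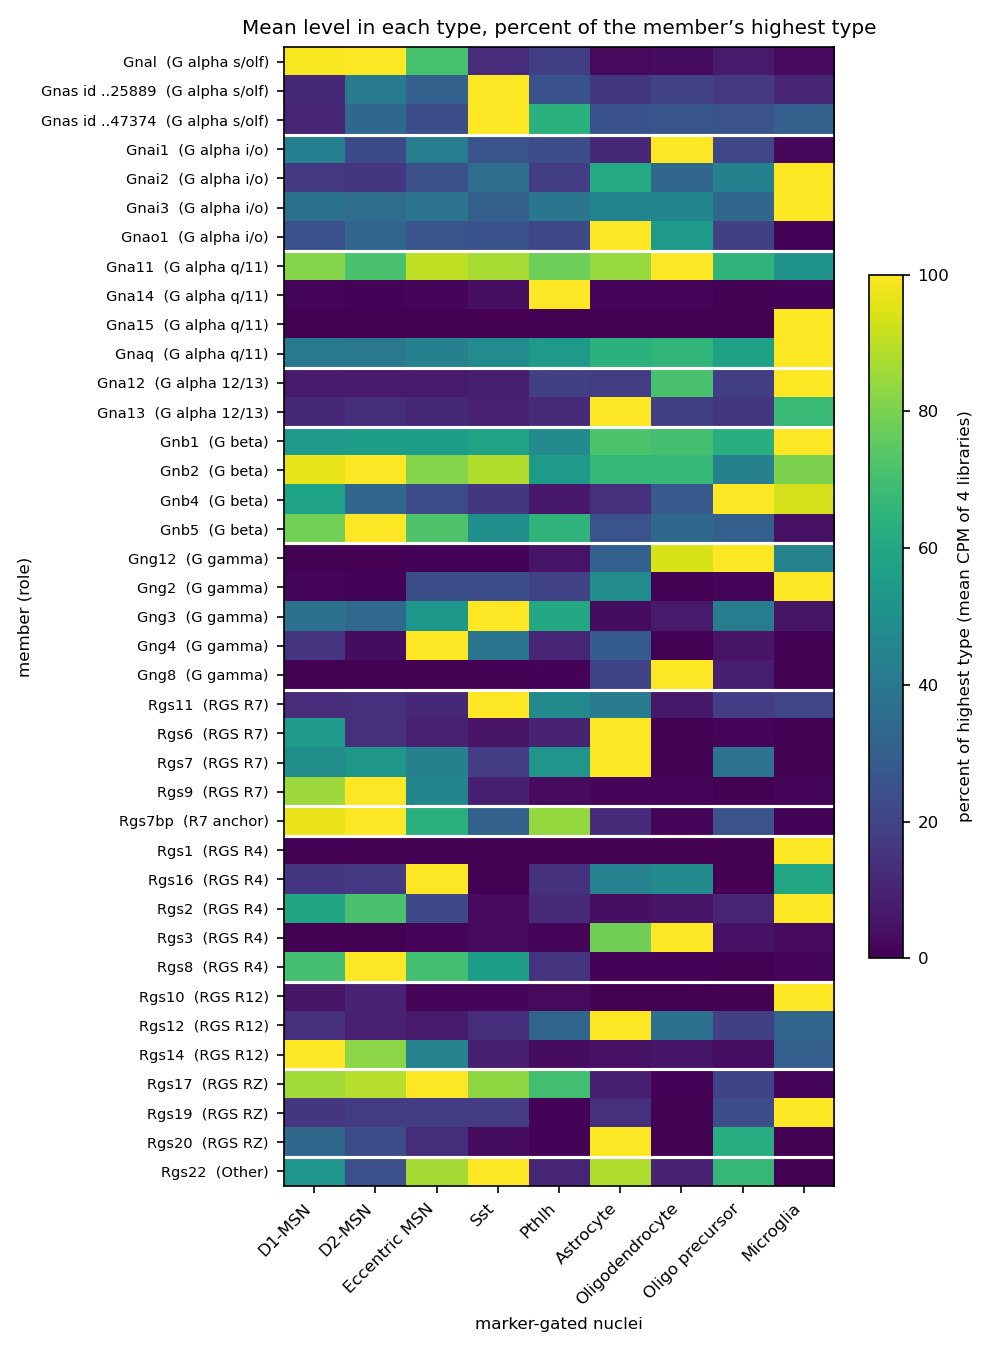
Mean CPM of 4 libraries for each of the 39 tested members (rows, grouped by role) in 9 gated types (columns), as a percent of that member's highest type. Gna14, Gna15, Rgs1 and Gng8 are bright in 1 column, whereas Gna11, Gnb1 and Gnb2 stay at 43.5% or more of their highest type in every column.

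The 9 types carried different combinations of members. Microglia were the highest type for 11 of the 39 members, astrocytes and D2-MSN for 6 each, Sst interneurons for 5, oligodendrocytes for 4, eccentric MSN for 3, oligodendrocyte precursors for 2, and D1-MSN and Pthlh interneurons for 1 each. In 27 of 39 members the 4 libraries of the highest type lay above all 4 libraries of the second type. These counts were not made over all genes tested, so they do not set the members apart from other genes. A member could also pass the low-count filter through its highest type alone, as Rgs1 did through microglia. For such members ranges apart follow from the filter. In the map of levels by type, several gamma subunits and RGS genes fall to near 0 in some columns, while Gna11, Gnb1 and Gnb2 do not.

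Of the stimulatory alpha subunits, Gnal set spiny neurons apart from the other types. Gnal, which encodes Golf alpha, was 884, 807, 826 and 812 CPM in D1-MSN, 904, 851, 822 and 785 CPM in D2-MSN and 595, 579.9, 599 and 612 CPM in eccentric MSN. The 12 values of these spiny neurons all lay above the highest value of any other type, and the D1-MSN and D2-MSN ranges overlapped. Pthlh interneurons had 149, 143, 178 and 154 CPM and Sst interneurons 154, 109, 90.1 and 71.7 CPM. In glia the means ran from 20.5 ± 9.001 CPM (SD, n = 4) in astrocytes to 61.7 ± 7.14 CPM in oligodendrocyte precursors. The summed MSN marker list was 6383 CPM in D1-MSN and 471 CPM in astrocytes. How much of the glial Gnal levels and shares is free RNA from spiny neurons was not tested. Gnas, counted on its larger row (ENSRNOG00000047374), followed another order: 138, 159, 194 and 208 CPM in Sst interneurons, 125, 105, 102 and 113 CPM in Pthlh interneurons, 67.5, 52.03, 51.2 and 63.3 CPM in D2-MSN and 23.3, 13.2, 17.2 and 18.02 CPM in D1-MSN. All 4 Sst values were above all Pthlh values, and D1-MSN had the lowest values in every library. As a percent of its Sst mean, this row was 33.5% in D2-MSN, 23.8% in eccentric MSN and 25.2 to 30.8% in glia. Gnal took 97.3 to 98.1% of the Gnal and Gnas UMIs in D1-MSN, 91.7 to 93.7% in D2-MSN and 91.4 to 94.8% in eccentric MSN. The same share was 54 to 62.1% in Pthlh interneurons, 24.1 to 50.6% in Sst interneurons and 25.3 to 39.6% in astrocytes.

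Among i/o alpha subunits, Gnao1, which encodes Go alpha, was highest in astrocytes at 1003, 1181, 1155 and 1226 CPM, against 661, 625, 611 and 586 CPM in oligodendrocytes. D2-MSN followed with 397, 381, 340.5 and 364 CPM and microglia had 18.8, 0, 10.2 and 23.97 CPM. Every astrocyte value exceeded every value of another type, and the microglial sums rested on 8, 0, 4 and 7 UMIs. Gnai1 was highest in oligodendrocytes at 343, 328, 312 and 286 CPM (log2 difference 2.44, SE 0.066, adjusted p = 4.04e-37), and its share of Gnai1, Gnai2 and Gnai3 UMIs was 77.3 to 79.3% there, 68.5 to 70.4% in D1-MSN, 51.7 to 59.2% in D2-MSN, 19.9 to 28.3% in astrocytes and 0 to 4.76% in microglia. Gnai2 and Gnai3 were highest in microglia, with 111 ± 20.5 and 110.3 ± 15.01 CPM (SD, n = 4). Gnai3 and Gnat2 overlap in the RefSeq annotation, so that their counts are uncertain.

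The q/11 alpha subunits held 2 members with high levels in a single type. Gna15 was 425, 304, 378 and 346 CPM in microglia, from 181, 70, 148 and 101 UMIs, while the 4 libraries of each other tested type together held 0 to 7 UMIs. Gna14 was 243, 160.4, 114 and 99.8 CPM in Pthlh interneurons, from 132, 73, 46 and 22 UMIs (log2 difference 6.17, SE 0.20, adjusted p = 8.09e-33); the next type, Sst interneurons, had 7.89, 0, 9.24 and 7.17 CPM. No library of another type reached the lowest Pthlh value. Gnaq, the broadly expressed Gq alpha, was found in every type, from 236 to 285 CPM in D2-MSN to 590.4 to 742 CPM in microglia (log2 difference 0.99, SE 0.065, adjusted p = 2.01e-19). Gna11 means stayed between 6.53 ± 2.70 CPM in microglia and 12.8 ± 1.23 CPM in oligodendrocytes (SD, n = 4). Of the 12/13 class, Gna12 was highest in microglia (448, 456, 452 and 418 CPM) and Gna13 in astrocytes (213, 213, 168 and 209 CPM).

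**Figure D2:**
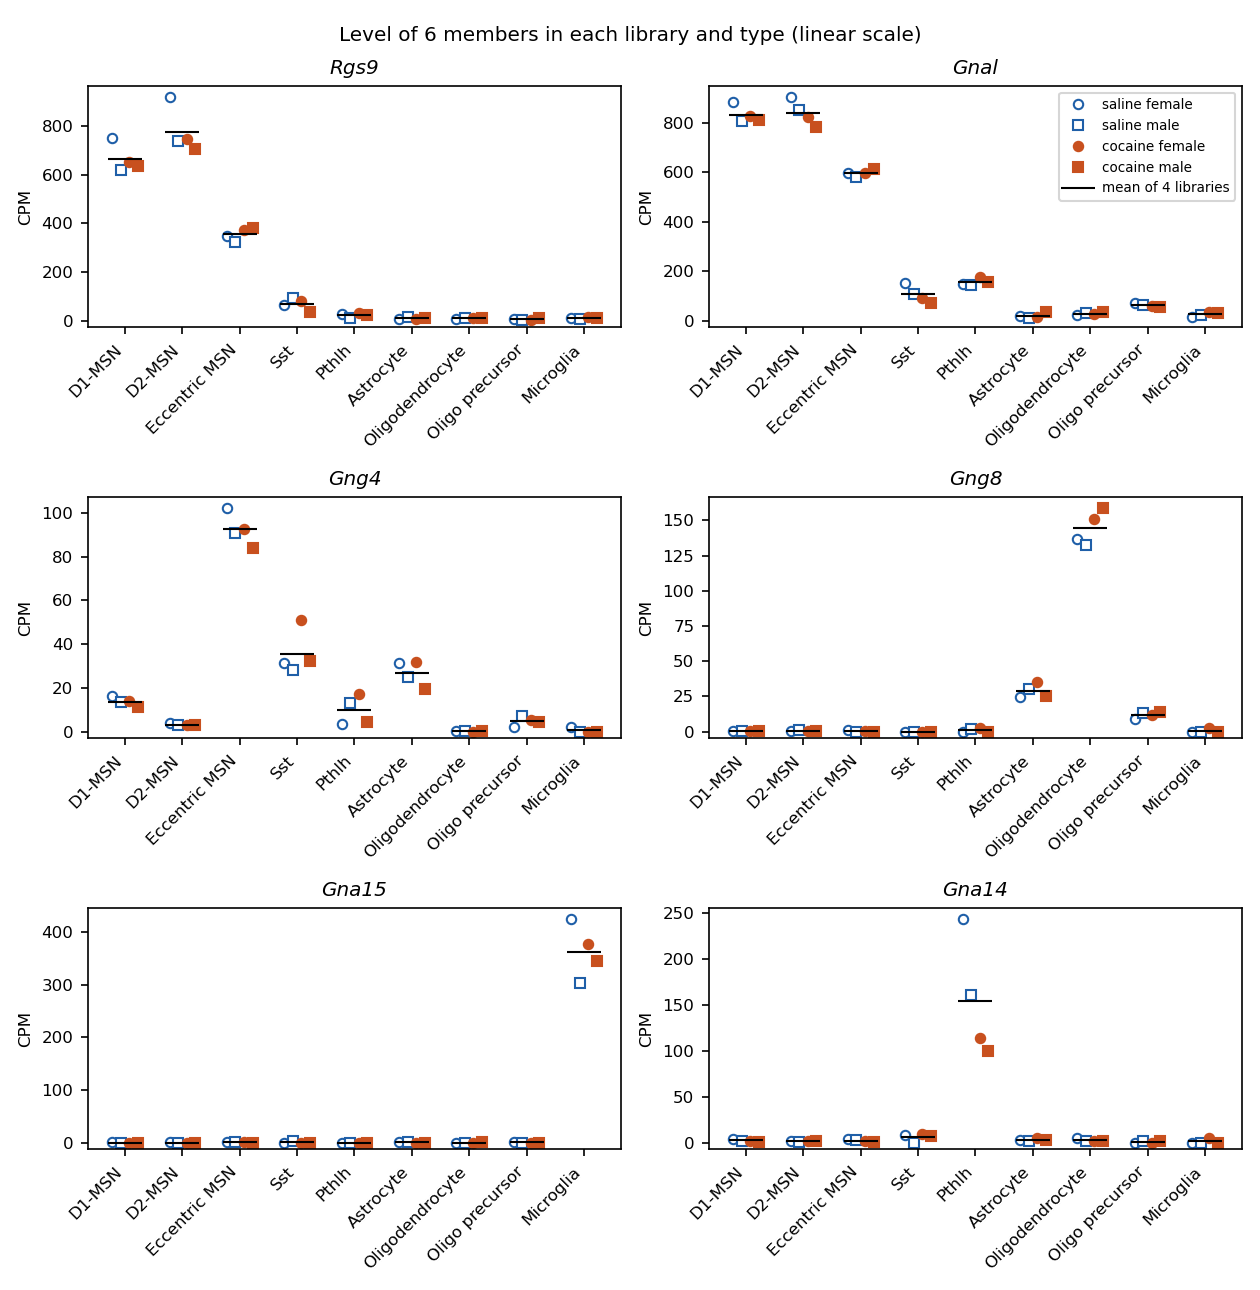
CPM of 6 members in each of 4 libraries (circles female, squares male, open saline, filled cocaine) by gated type, with the mean as a line, on linear axes that differ between panels. Rgs9 and Gnal are high in the 3 spiny neuron gates, Gng4 in eccentric MSN, Gng8 in oligodendrocytes, Gna15 in microglia and Gna14 in Pthlh interneurons.

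The beta subunit Gnb1 had means of 192 ± 9.15 to 232 ± 15.5 CPM (SD, n = 4) over the 5 neuron types. It was 211, 218, 227 and 218 CPM in D1-MSN and 223, 229.7, 226 and 219 CPM in D2-MSN, with overlapping ranges, and 477, 321, 409 and 404 CPM in microglia (log2 difference 0.79, SE 0.075, adjusted p = 1.32e-13). Gnb5, the partner of R7 RGS proteins, was 117, 108, 100.2 and 108 CPM in D2-MSN, 80.1, 85.3, 88.9 and 86.2 CPM in D1-MSN, 66.3, 63.7, 69.4 and 81.7 CPM in Pthlh interneurons and 2.35, 8.68, 5.11 and 3.42 CPM in microglia. It took 21.97 to 24.9% of beta subunit UMIs in D2-MSN, 18.1 to 19.3% in D1-MSN, 5.996 to 8.46% in astrocytes and 0.336 to 1.68% in microglia. Gnb4 took 24.4 to 29.7% of beta UMIs in oligodendrocyte precursors, 17.4 to 21.8% in microglia and 13.6 to 17.6% in D1-MSN, against 2.34 to 3.11% in Pthlh interneurons. Gnb2 means ran from 36.3 ± 14.1 CPM in oligodendrocyte precursors to 83.5 ± 3.68 CPM in D2-MSN (SD, n = 4), and the D2-MSN and D1-MSN ranges overlapped.

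The gamma subunits listed separated the glial types from one another. Gng8 was 137, 133, 151 and 159 CPM in oligodendrocytes, 24.9, 30.4, 35.2 and 25.1 CPM in astrocytes and 9.28, 13.2, 11.6 and 14.2 CPM in oligodendrocyte precursors; the 4 Sst libraries together had 0 UMIs. Gng12 was 326, 264, 283 and 288 CPM in oligodendrocyte precursors and 258, 301, 307 and 223 CPM in oligodendrocytes, ranges that overlapped, and D1-MSN had 0.295, 0.527, 0.252 and 0.273 CPM. Gng2 was 690.3, 612, 667 and 644 CPM in microglia, 338, 335, 247 and 340.2 CPM in astrocytes and 2.83, 4.76, 3.55 and 4.16 CPM in oligodendrocytes. Of the gamma UMIs counted, Gng12 and Gng8 took 57.2 to 67.8% and 29.8 to 40.7% in oligodendrocytes. Gng12 took 82.9 to 90.03% in their precursors, and Gng2 took 79.7 to 85.02% in microglia and 60.4 to 73.1% in astrocytes. These shares leave out Gng7, Gng10, Gng13 and Gngt2.

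Gng4 distinguished eccentric MSN. It was 102, 90.9, 92.5 and 83.99 CPM there, 31.6, 28.1, 50.8 and 32.2 CPM in Sst interneurons, 16.1, 13.6, 13.98 and 11.3 CPM in D1-MSN and 4.09, 2.85, 3.15 and 2.89 CPM in D2-MSN. The eccentric values lay above those of every other type (log2 difference 4.13, SE 0.12, adjusted p = 1.69e-34). Gng2 also set the eccentric gate apart from the larger spiny classes, at 202, 141, 136 and 147 CPM against 17.997, 11.99, 10.95 and 4.10 CPM in D1-MSN and 9.65, 8.55, 7.41 and 3.69 CPM in D2-MSN. Gng3, a neuronal gamma subunit, was highest in Sst interneurons at 49.6 ± 12.1 CPM (SD, n = 4), with a range overlapping that of Pthlh interneurons. Its gene overlaps Bscl2 in the annotation.

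Of the R7 RGS genes, Rgs9 had its highest mean in D2-MSN, and Rgs6 and Rgs7 had theirs in astrocytes, among the tested types. Rgs9 was 919, 738, 745 and 704 CPM in D2-MSN, 750.4, 618, 651 and 634 CPM in D1-MSN, 349.9, 325, 373 and 379 CPM in eccentric MSN and 63.1, 93.7, 80.8 and 35.8 CPM in Sst interneurons. D2-MSN and D1-MSN ranges overlapped on this scale, eccentric MSN were lower in all 4 libraries, and glial means were 5.77 ± 3.13 to 10.9 ± 3.02 CPM (SD, n = 4). How much of the glial level is free RNA from spiny neurons was not tested. Rgs7 was 1243, 1461, 1631 and 1287 CPM in astrocytes, 748, 673, 704 and 808 CPM in Pthlh interneurons and 9.27, 5.63, 14.5 and 9.99 CPM in oligodendrocytes. Rgs6 was 575, 965, 711 and 787 CPM in astrocytes and 397, 421, 412 and 450.2 CPM in D1-MSN, with D2-MSN at 102, 101, 107 and 110.3 CPM. Rgs11 was 86.8, 78.1, 125 and 115 CPM in Sst interneurons, 38.7, 57.1, 37.2 and 58.996 CPM in Pthlh interneurons and 14.3, 11.2, 11.96 and 13.7 CPM in D1-MSN (log2 difference 2.53, SE 0.19, adjusted p = 8.15e-17 for Sst interneurons). Of R7 UMIs, Rgs9 took 45.8 to 50.2% in D2-MSN, 35.8 to 39.99% in D1-MSN and 0.302 to 0.555% in astrocytes, whereas Rgs7 took 80.5 to 88.7% in Pthlh interneurons. Rgs6 took 29.9 to 38.8% in astrocytes, 21.2 to 25.4% in D1-MSN and 5.58 to 7.27% in D2-MSN. The anchor Rgs7bp was 546, 546, 480.1 and 487 CPM in D2-MSN, 520.0, 502, 483 and 493 CPM in D1-MSN, 442, 334, 523 and 436 CPM in Pthlh interneurons and 7.04, 4.34, 7.67 and 0 CPM in microglia. The other anchor, Rgs9bp, had 1 UMI in all gated nuclei.

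The R4, R12 and RZ groups hold small RGS proteins and larger scaffolds. Rgs8 was 167, 152, 156 and 149 CPM in D2-MSN, 114, 106, 109 and 108 CPM in D1-MSN, 107, 114, 106 and 107 CPM in eccentric MSN and 98.6, 90.6, 60.1 and 100.3 CPM in Sst interneurons, and 16.6, 19.8, 24.8 and 31.8 CPM in Pthlh interneurons. All 4 D2-MSN values were above the others, and the D1-MSN and eccentric ranges overlapped. Rgs3 was 168, 149, 156 and 154 CPM in oligodendrocytes and 129.7, 119, 104 and 137 CPM in astrocytes, with ranges apart, and 0.164, 0.178, 0.158 and 0.161 CPM in D2-MSN. Rgs10, of the R12 group, was 866, 612, 669.7 and 613 CPM in microglia (log2 difference 6.21, SE 0.11, adjusted p = 1.07e-44), 64.6, 63.4, 71.1 and 62.9 CPM in D2-MSN and 47.2, 30.2, 36.01 and 35.6 CPM in D1-MSN. Rgs1 was counted in microglia only among the tested types, with 6, 6, 5 and 8 UMIs, while Rgs5, a pericyte marker in many tissues, had 132 of its 147 UMIs in the 54 vascular nuclei. Rgs2 was 30.5, 47.8, 33.2 and 51.4 CPM in microglia and 32.7, 23.7, 25.4 and 34.5 CPM in D2-MSN, ranges that overlapped. Rgs16 was 4.79, 9.43, 8.54 and 8.76 CPM in eccentric MSN (log2 difference 3.21, SE 0.45, adjusted p = 2.94e-08), from 10, 14, 17 and 12 UMIs. Of the RZ group, Rgs20 was 293, 282, 264 and 350.4 CPM in astrocytes, 193, 202, 162 and 184 CPM in oligodendrocyte precursors and 99.6, 85.9, 125 and 93.3 CPM in D1-MSN. Rgs17 was 222, 242, 253 and 254 CPM in eccentric MSN and 197, 204, 141 and 136 CPM in Pthlh interneurons, and the means of other neurons lay between. Rgs20 overlaps Atp6v1h, and Gnal overlaps Chmp1b, in the RefSeq annotation.

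Calls between types were frequent among all genes tested. In D1-MSN 20 members were higher and 13 lower than in the mean of the other types, where 35.5% and 24.9% of 13037 genes were higher and lower. In D2-MSN 17 were higher (35% of all genes) and 13 lower (25.1%), and in eccentric MSN 18 were higher (30.1%) and 11 lower (17.8%). In Sst interneurons 11 were higher (21.6%) and 6 lower (11.9%), and in Pthlh interneurons 12 were higher (23.1%) and 9 lower (12.8%). In astrocytes 17 were higher (34.3%) and 13 lower (25.8%), and in oligodendrocytes 11 were higher (39.7%) and 17 lower (29.4%). In oligodendrocyte precursors 9 were higher (28.1%) and 12 lower (17.9%), and in microglia 16 were higher (25.9%) and 14 lower (32.9%). The median member log2 difference ran from -0.39 in oligodendrocytes, where the median of all genes was 0.059, to 0.33 in D1-MSN, where it was 0.020.

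D2-MSN and D1-MSN, the spiny classes that carry the D2 and D1 dopamine receptors, were then compared within the same libraries, with CPM scaled over these 2 classes. Of 36 members tested, 9 were higher in D2-MSN, where 7.37% of 12649 genes were, and 9 were lower, where 8.28% were. The median member difference was -0.00098 on the log2 scale, against -4.20e-05 for all genes. Gng4 and Rgs6 were the members furthest above in D1-MSN, and the 2 Gnas rows the furthest above in D2-MSN.

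Gng4 was 14.3, 12.1, 12.5 and 10.2 CPM in D1-MSN and 3.61, 2.55, 2.81 and 2.60 CPM in D2-MSN, 4.21-fold higher in D1-MSN (log2 difference -2.08, SE 0.15, adjusted p = 9.31e-10). Rgs6 was 352, 376, 369 and 403 CPM in D1-MSN and 90.1, 90.7, 95.8 and 99.3 CPM in D2-MSN, 3.99-fold higher in D1-MSN (log2 difference -1.995, SE 0.037, adjusted p = 1.58e-19). For both genes every D1-MSN value lay well above every D2-MSN value. Nuclei of the eccentric cluster made up 4.75 to 7.78% of the D1-MSN gate and at most 0.455% of the D2-MSN gate. Eccentric MSN had a Gng4 mean of 92.4 CPM on the scale of all types. What part such nuclei have in the Gng4 fold was not tested. Gnai1, a Gi alpha, was 109, 116, 137 and 126 CPM against 60.1, 66.1, 64.7 and 65.3 CPM (log2 difference -0.93, SE 0.050, adjusted p = 8.88e-12). Gnb4 was 69.2, 53.7, 70.7 and 61.6 CPM against 40.2, 34.3, 34.9 and 35.99 CPM (log2 difference -0.81, SE 0.062, adjusted p = 2.78e-09). These groups were also apart in all libraries, with D1-MSN higher. Rgs20 was 88.3, 76.7, 112 and 83.5 CPM against 69.2, 59.1, 56.4 and 58.7 CPM (log2 difference -0.56, SE 0.075, adjusted p = 7.77e-06). Rgs12, a scaffold of the R12 group, was 6.15, 5.18, 5.64 and 5.01 CPM against 3.89, 3.67, 3.10 and 3.61 CPM (log2 difference -0.62, SE 0.17, adjusted p = 0.0159). Rgs22 was 5.62, 4.24, 5.30 and 3.30 CPM against 1.59, 1.75, 3.66 and 1.59 CPM (log2 difference -1.09, SE 0.23, adjusted p = 0.00150), with 1 D2-MSN library inside the D1-MSN range. Rgs14 was lower in D2-MSN by 0.28 on the log2 scale, with adjusted p = 0.0182.

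The gamma subunit Gng2 was 15.96, 10.7, 9.81 and 3.67 CPM in D1-MSN and 8.51, 7.65, 6.61 and 3.32 CPM in D2-MSN (log2 difference -0.61, SE 0.14, adjusted p = 0.00321), with overlapping ranges. Its direction depended on the gate: with stricter marker limits the difference was 0.29 (adjusted p = 0.617). With clusters in place of the gate it was -0.85 to -0.52 and passed in 6 of 6 clusterings that differed in the random seed alone. With gated nuclei that also lay in a cluster of the same name it ran from -0.17 to 0.10 over the same 6 seeds and passed in 0. The D1-MSN gate held nuclei of the eccentric cluster, which is high in Gng2: 5.15%, 7.78%, 5.24% and 4.75% of its nuclei in the 4 libraries.

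In the other direction, the larger Gnas row was 20.7, 11.8, 15.4 and 16.1 CPM in D1-MSN and 59.6, 46.5, 45.7 and 56.95 CPM in D2-MSN, 3.27-fold higher in D2-MSN (log2 difference 1.71, SE 0.078, adjusted p = 5.81e-13). The smaller row was 1.18, 2.12, 1.47 and 1.47 CPM and 5.48, 4.62, 5.91 and 7.23 CPM (log2 difference 1.88, SE 0.23, adjusted p = 2.07e-06). Both rows were higher in D2-MSN in all 4 libraries, with no overlap, while Gnal did not pass (log2 difference 0.013, SE 0.028, adjusted p = 0.851). Rgs10 was 41.9, 26.9, 32.2 and 31.9 CPM against 56.97, 56.7, 63.5 and 56.7 CPM (log2 difference 0.82, SE 0.078, adjusted p = 7.56e-08). Rgs8 was 101, 95.1, 97.2 and 96.997 CPM against 147, 136, 139 and 134 CPM (log2 difference 0.51, SE 0.040, adjusted p = 3.98e-09). Each was higher in D2-MSN in every library. Gnao1 was 279, 252, 242 and 246 CPM against 350.2, 341, 304 and 328 CPM (log2 difference 0.38, SE 0.033, adjusted p = 2.37e-08). Gnb5 was 71.02, 76.1, 79.6 and 77.2 CPM against 103, 96.7, 89.5 and 96.99 CPM (log2 difference 0.34, SE 0.053, adjusted p = 5.34e-05). Rgs9, a GTPase accelerator that works with Gnb5, was 665, 552, 583 and 568 CPM against 811, 660.1, 666 and 634 CPM (log2 difference 0.22, SE 0.030, adjusted p = 7.70e-06), higher in D2-MSN within each library although the ranges overlapped. Its R7 relative Rgs7 differed by 0.094 (SE 0.029, adjusted p = 0.0288). Rgs2 was 22.6, 16.1, 23.8 and 23.2 CPM against 28.8, 21.2, 22.7 and 31.1 CPM (log2 difference 0.27, SE 0.087, adjusted p = 0.0404), higher in D2-MSN in 3 of 4 libraries. Leaving out the saline female, saline male or cocaine male library ended the Rgs2 call (adjusted p = 0.136, 0.136 and 0.247). Leaving out the saline female library ended the Gng2 call (log2 difference -0.45, adjusted p = 0.0867), and leaving out either female library ended the Rgs12 call (adjusted p = 0.0594 and 0.0802). The Rgs14 call ended without either one of the cocaine libraries, female or male (adjusted p = 0.173 and 0.0529), and the Rgs7 call without the saline female, cocaine female or saline male library (0.211, 0.0736 and 0.129). DESeq2 did not call Rgs12, Rgs22, Gng2, Rgs14, Rgs2 or Rgs7 (adjusted p = 0.420, 0.0553, 0.250, 0.394, 0.497 and 0.239). Without the library as a block the calls of Rgs9, Rgs14, Rgs2, Rgs7 and Gng2 were lost (adjusted p = 0.123, 0.106, 0.406, 0.424 and 0.470). The stricter gate ended the Rgs2 and Rgs7 calls (0.220 and 0.199), gated nuclei in clusters of the same name that of Rgs2 (0.0528), and keeping predicted doublets that of Rgs12 (0.0667).

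**Figure D3:**
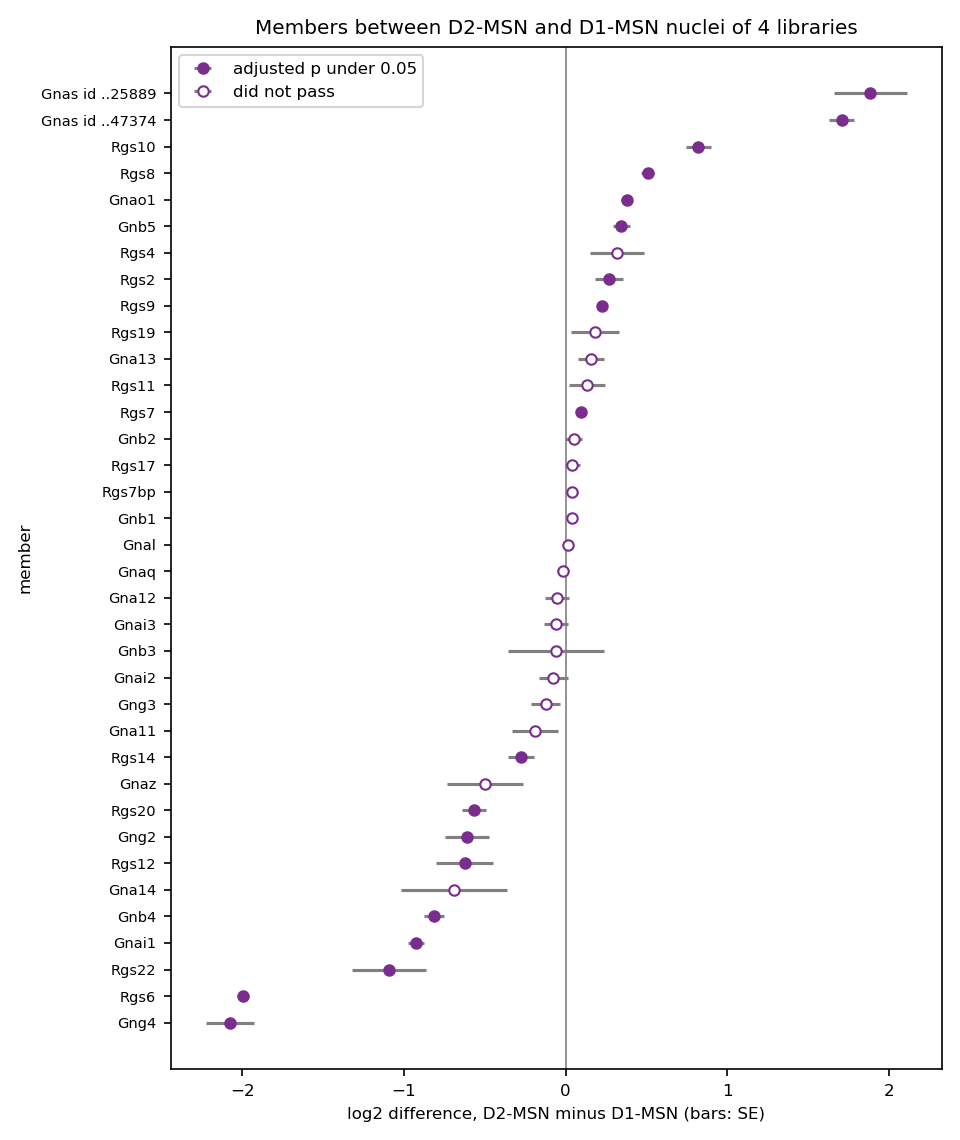
Log2 difference between D2-MSN and D1-MSN for the 36 members tested, with SE from the edgeR fit as bars and filled points for members with adjusted p under 0.05. Gng4 and Rgs6 lie near -2, the 2 Gnas rows near 1.8 (labelled by the end of their identifiers), and Gnal, Gnb1, Gnaq, Rgs17 and Rgs7bp near 0.

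Cocaine was compared with saline in each type with sex as a covariate, CPM being scaled within the type. Of 237 tests of a member in a type, 1 passed, which is 0.422%, against 0.554% of 83875 tests over all genes. At an unadjusted p under 0.05 there were 36 member tests (15.2%) and 7260 of all tests (8.66%). DESeq2 called 0 members on the same sums. No member was called in D1-MSN (0 of 36, where 0.301% of all genes were called), in D2-MSN (0 of 36, 0.811%) or in eccentric MSN (0 of 32, 0.536%). None was called in Sst interneurons (0 of 19, 0.573%), astrocytes (0 of 30, 0.232%), oligodendrocytes (0 of 26, 1.31%), their precursors (0 of 20, 0.0465%) or microglia (0 of 16, 0.422%). In Pthlh interneurons 1 of 22 was called, where 0.607% of 6919 genes were, and 0.26% of them lower with cocaine. Median member log2 fold changes lay between -0.10 in microglia and 0.14 in Pthlh interneurons, and the medians of all genes between -0.0052 and 0.0038.

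The called member was Gna14, the q/11 class alpha subunit concentrated in Pthlh interneurons. It was 252, 169.7, 121 and 110.3 CPM, from 132, 73, 46 and 22 UMIs in 66, 72, 61 and 36 nuclei. Both cocaine libraries lay below both saline libraries (log2 fold change -0.90, SE 0.22, adjusted p = 0.0106), with log2 ratios of -1.04 within females and -0.60 within males, each from 1 library per treatment. The summed Pthlh marker list was at 680, 688, 595 and 649 CPM in the same order, and its part in the result was not tested. With clusters in place of the gate the value was -0.58 to -0.57 and passed in 4 of 6 clusterings that differed in the random seed alone (adjusted p from 0.0326 to 0.118). The call was lost with gated nuclei that lay in a cluster of the same name, at -0.90 (adjusted p = 0.106), and without the saline female library, at -0.54 (adjusted p = 0.999). It was also lost without the cocaine female library, at -0.96 (adjusted p = 0.386), and without the cocaine male library, at -0.81 (adjusted p = 0.563). Without the saline male library it was kept, at -1.11 (adjusted p = 0.0466). These are fits of 3 libraries, without the sex covariate, in which 1 treatment has a single library. With all 4 libraries it was lost without the low-count filter, at -0.92 (adjusted p = 0.975), and without the sex covariate, at -0.86 (adjusted p = 0.663), and DESeq2 gave -0.85 and did not call it.

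Gng2 was the member nearest to a call in D1-MSN. It was 15.98, 10.7, 9.88 and 3.69 CPM in D1-MSN, from 122, 91, 87 and 30 UMIs, and the cocaine libraries lay below the saline libraries (log2 fold change -1.01, SE 0.21, adjusted p = 0.0819). The cocaine male library was the lowest. In D2-MSN it was 8.47, 7.61, 6.58 and 3.31 CPM (log2 fold change -0.71, SE 0.26, adjusted p = 0.223), again lowest in cocaine males. With clusters in place of the gate the D1-MSN value ran from -0.25 to -0.11 over 6 seeds and passed in 0. Where gated nuclei also had to lie in clusters of the same name, it ran from -0.65 to -0.49 and passed in 0, and with the stricter gate it was -0.42. The D2-MSN value with gated nuclei in such clusters was -1.15 over the 6 seeds and passed in 5 (adjusted p from 0.0272 to 0.0543), and it was -1.10 with the stricter gate and -0.36 without doublet removal. Without the cocaine male library the values were -0.43 in D1-MSN and -0.29 in D2-MSN, and without the cocaine female library -1.85 (adjusted p = 0.00149) and -1.28. Without the saline female library the D1-MSN value was -0.65. The D1-MSN value also passed with RLE scaling, without the low-count filter, without doublet removal and without the saline male library, at -1.22 to -1.01. The summed eccentric marker list in the D1-MSN gate was 120, 180, 188 and 124 CPM in the same order. Microglial and astrocyte lists there were 3.64 to 8.44 and 592 to 702 CPM. The Pthlh list there was 23.8, 21.5, 11.4 and 11.2 CPM, lower in both cocaine libraries. In the D2-MSN gate the Pthlh list was 10.6, 9.81, 7.59 and 6.61 CPM, again lower in both. What part these have in the Gng2 values was not tested.

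Besides Gng2, the 3 members nearest to a call were in Sst interneurons and eccentric MSN. The anchor Rgs7bp was 182, 92.2, 215 and 276 CPM in Sst interneurons (log2 fold change 0.85, SE 0.24, adjusted p = 0.0525), with both cocaine values above both saline values. It passed without the saline female library, at 1.38 (adjusted p = 0.0142), and was 0.40 without the saline male library (adjusted p = 0.854). In the Sst gate the summed MSN marker list was 2763, 2610, 3117 and 3476 CPM in the same order. The eccentric list was 276, 136, 405 and 309 CPM and the GABAergic list 289, 259, 461 and 426 CPM. These lists were higher in both cocaine libraries, whereas the Sst list (3722, 4655, 3802 and 5104 CPM) overlapped between treatments. Their part in the Rgs7bp value was not tested. Rgs20 was 32.4, 24.01, 46.01 and 46.5 CPM in eccentric MSN (log2 fold change 0.69, SE 0.20, adjusted p = 0.0986). Gnai3 was 30.5, 33.1, 50.8 and 47.2 CPM in eccentric MSN (log2 fold change 0.64, SE 0.19, adjusted p = 0.110). Neither of these eccentric pairs overlapped between treatments, and neither passed the adjusted test. The summed eccentric marker list in this gate was 3394, 3125, 2884 and 2788 CPM in the same order, lower in both cocaine libraries. Nuclei of D1-MSN clusters made up 4.18%, 9.09%, 11.8% and 11.6% of the gate. Their part in the Rgs20 and Gnai3 values was not tested. With gated nuclei in clusters of the same name Rgs20 was 0.43, and with clusters in place of the gate Gnai3 was 0.39. Next came Gna12 in D2-MSN (log2 fold change -0.36, adjusted p = 0.186) and Rgs7bp in oligodendrocytes (1.10, adjusted p = 0.213). The oligodendrocyte mean of Rgs7bp was 1.2% of its D2-MSN mean. The summed MSN marker list in the oligodendrocyte gate was higher in both cocaine libraries, and its part in this Rgs7bp value was not tested. Rgs6 in Pthlh interneurons was 84.1, 18.6, 79.2 and 125 CPM (log2 fold change 0.84, SE 0.32, adjusted p = 0.370). The saline male library was low. Against the saline female library, the cocaine female library lay slightly lower and the cocaine male library higher. With clusters in place of the gate Rgs6 passed in 6 of 6 clusterings, at 0.96 to 0.997 (adjusted p from 0.0048 to 0.0216). With gated nuclei in clusters of the same name it was 2.58 and passed (adjusted p = 0.00629). All 6 seeds gave this same value, so they count as 1 result. Without the saline female library, Rgs6 was 2.35.

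Members known for their expression in striatum were read in the same fits. In D1-MSN Gnal was 785, 723, 745 and 732 CPM (log2 fold change -0.029, SE 0.069, adjusted p = 0.937), and in D2-MSN 794, 758, 731 and 702 CPM (log2 fold change -0.11, SE 0.070, adjusted p = 0.632). Rgs9 was 666, 554, 587 and 572 CPM in D1-MSN (log2 fold change -0.069, SE 0.076, adjusted p = 0.831) and 807, 657, 662 and 630.1 CPM in D2-MSN (log2 fold change -0.17, SE 0.070, adjusted p = 0.311). The saline female library was highest for Rgs9 in both classes, and the other 3 lay close together. Without the saline male library the D2-MSN value passed, at -0.32 (adjusted p = 0.0185). Rgs2, an early response gene in many cells, was 22.7, 16.2, 23.96 and 23.4 CPM in D1-MSN (log2 fold change 0.30, SE 0.14, adjusted p = 0.541) and 28.7, 21.1, 22.5 and 30.9 CPM in D2-MSN (log2 fold change 0.092, SE 0.13, adjusted p = 0.902). Rgs4 was 6.55, 3.78, 3.86 and 4.43 CPM in D1-MSN (log2 fold change -0.30, SE 0.30, adjusted p = 0.809) and 7.46, 6.18, 4.48 and 4.89 CPM in D2-MSN (log2 fold change -0.54, SE 0.27, adjusted p = 0.4998), where both cocaine values lay below both saline values. Rgs8 was 101, 95.4, 97.9 and 97.6 CPM in D1-MSN (log2 fold change -0.0098, SE 0.079, adjusted p = 0.983). None of these passed the adjusted test, which does not show that the levels stayed the same.

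**Figure D4:**
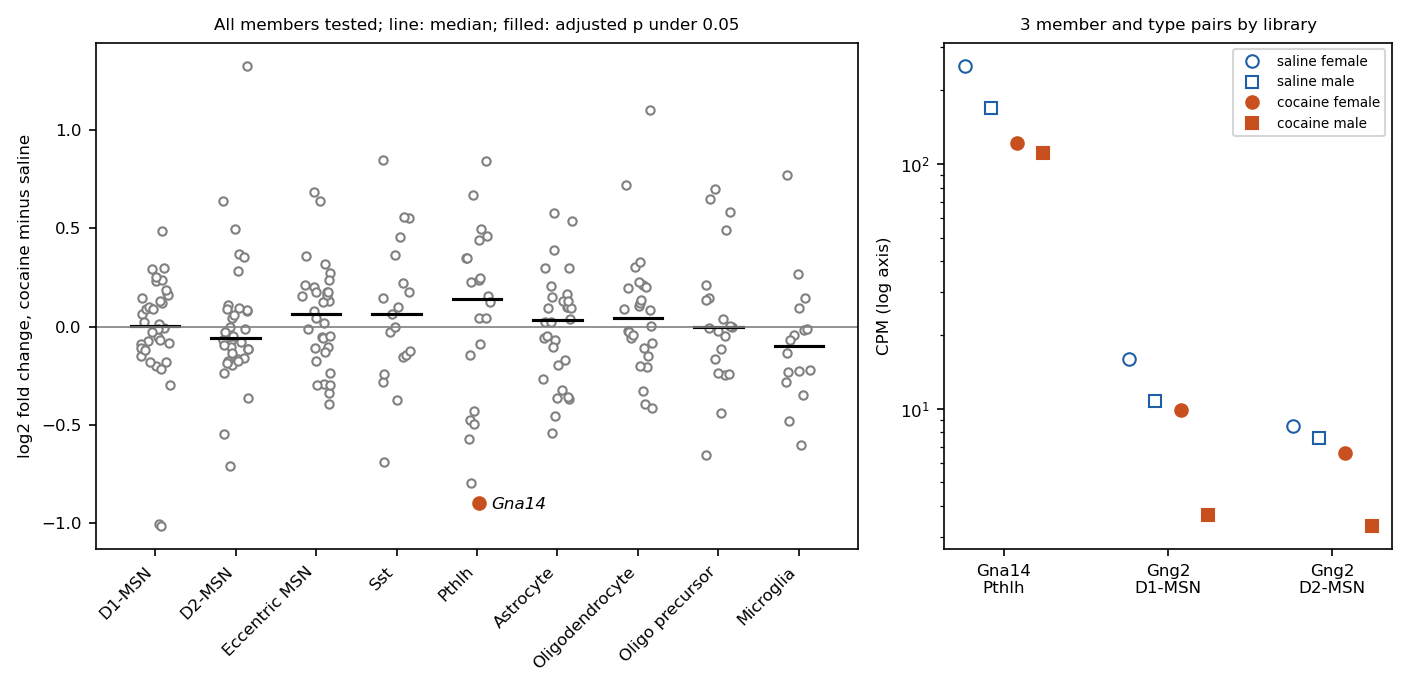
Left, log2 fold change of cocaine against saline for each member tested in each type, with the median as a line and the 1 called member filled. Right, CPM by library on a log axis for Gna14 in Pthlh interneurons and Gng2 in D1-MSN and D2-MSN, where both cocaine libraries lie below both saline libraries.

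Whether cocaine moved a member differently in D2-MSN and D1-MSN was tested directly. No member of 36 passed, against 0.0474% of 12649 genes in edgeR and 0 genes in DESeq2; 3 members had an unadjusted p under 0.05, as did 6.51% of all genes. The smallest p belonged to Rgs17 (difference of the log2 effects -0.26, SE 0.071, adjusted p = 0.271) and Rgs20 (-0.40, SE 0.12, adjusted p = 0.354), both RZ group members. Without the cocaine male library both passed, at -0.33 (adjusted p = 0.0256) and -0.63 (adjusted p = 1.29e-04), where 121 of all genes passed against 6 with the 4 libraries. Without the low-count filter Rgs20 passed, at -0.42 (adjusted p = 0.0252), among 87 of all genes.

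Genes that act beside the members were read from the same fits: adenylyl cyclases, phospholipase C beta, G protein-gated potassium channels, chaperones and R7 partners, and receptor kinases and arrestins, 30 of 31 symbols being matched. Between the spiny classes 5 of 22 tested were higher in D2-MSN and 5 lower, where 7.37% and 8.28% of all genes were. Adcy2, an adenylyl cyclase, was 230.0 ± 16.4 CPM in D1-MSN and 10.8 ± 2.62 CPM in D2-MSN (SD, n = 4; log2 difference -4.41, SE 0.085, adjusted p = 2.94e-19). Kcnj6, a channel subunit opened by beta-gamma, was 7.04 ± 0.948 CPM in D1-MSN and 0.829 ± 0.735 CPM in D2-MSN (SD, n = 4; log2 difference -3.05, SE 0.29, adjusted p = 7.69e-08). Grk3, a receptor kinase that binds beta-gamma, was 4.02 ± 1.31 CPM in D1-MSN and 1.51 ± 0.208 CPM in D2-MSN (SD, n = 4; log2 difference -1.40, SE 0.26, adjusted p = 3.94e-04). Gpr158, an orphan receptor that binds R7 complexes, was 658 ± 49.9 CPM in D1-MSN and 892 ± 38.7 CPM in D2-MSN (SD, n = 4; log2 difference 0.44, SE 0.031, adjusted p = 8.35e-10). The first 3 were higher in D1-MSN and Gpr158 in D2-MSN.

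With cocaine, 4 of 179 tests of these pathway genes passed, 2.23%, against 0.554% of the tests over all genes. Each was in a different type: 1 of 21 in D2-MSN (0.811% of all genes), 1 of 21 in astrocytes (0.232%), 1 of 20 in oligodendrocytes (1.31%) and 1 of 13 in microglia (0.422%). Adcy9, a broadly expressed cyclase, was 1062, 1063, 645 and 675 CPM in microglia (log2 fold change -0.69, SE 0.14, adjusted p = 4.05e-04). Adcy8 was 222, 144, 134 and 81.2 CPM in astrocytes (log2 fold change -0.77, SE 0.13, adjusted p = 0.0228). Both were lower in both cocaine libraries than in both saline libraries. The summed astrocyte marker list in the microglia gate was 1699, 1230, 803 and 773 CPM in the same order, and the summed MSN marker list in the astrocyte gate 311, 248, 739.6 and 589 CPM. These lists moved with treatment as well, and their part in the Adcy9 and Adcy8 values was not tested. Plcb4, a target of Gq, was 23.1, 16.6, 13.4 and 12.9 CPM in D2-MSN (log2 fold change -0.59, SE 0.16, adjusted p = 0.0429). Gpr158 was 9.44, 5.69, 16.2 and 15.4 CPM in oligodendrocytes (log2 fold change 1.02, SE 0.29, adjusted p = 0.0326), the single one of the 4 that was higher with cocaine. The MSN list in the oligodendrocyte gate was 91.1, 108, 116 and 161 CPM, and its part in the Gpr158 value was not tested. DESeq2 called none of these 4 genes in these types (adjusted p near 1 for each). In edgeR, leaving out any 1 library ended the Adcy9 and Gpr158 calls, leaving out the saline female or cocaine male library ended that of Adcy8, and leaving out any but the saline male library ended that of Plcb4. Without the saline female library the Adcy8 value was -0.41 and the Plcb4 value -0.34, and without the cocaine male library the Adcy8 value was -0.46; without the cocaine female library it was -1.18 and passed. None of the 4 calls held without the sex covariate. Without doublet removal the calls of Plcb4, Gpr158 and Adcy9 were lost (adjusted p = 0.387, 0.200 and 0.228), and without the low-count filter those of Plcb4 and Adcy8 (0.0618 and 0.464). The Plcb4 call was also lost with clusters in place of the gate (0.0587). Gated nuclei in clusters of the same name ended the calls of Plcb4 and Gpr158 (0.0823 and 0.0875), and the stricter gate that of Gpr158 (0.149).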

How the data were processed

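The authors' deposited matrices hold raw UMI counts per gene and nucleus, made with Cell Ranger 6.1.2 per the file headers and on build rn7 per the submitters' processing notes; neither a label nor a header names the annotation or strand setting. Nuclei with fewer than 200 genes or over 5% mitochondrial UMIs were removed (4 nuclei), as were 1381 predicted doublets. Nuclei were gated per nucleus by 70 matched of 74 marker genes, none a member; clusters were made with scanpy 1.11.5 and leidenalg 0.10.2 without the members. Of 30560 listed genes, 7162 have no symbol. UMIs were summed per library and type, and types reaching 25 nuclei in each of the 4 libraries entered the quasi-likelihood test of edgeR 4.0.16 in R 4.3.3 (TMM scaling, filter by expression, Benjamini-Hochberg adjustment over all genes, threshold 0.05). Cocaine was fitted with sex as a covariate, and types with the library as a block; SEs were derived from the F statistic. Each library is a pool of 4 rats and 2 libraries make a treatment group. The p-values for cocaine measure the spread between pools that is left after sex and treatment. Those between types measure how a type difference within a library varies between libraries. With 4 libraries both rest heavily on spread shared across genes. The code of the fits was run on simulated data, from which no value is given here. Alternatives were RLE scaling, no low-count filter, no doublet removal, a stricter gate, clusters, DESeq2 1.42.0, no sex covariate, no library block and leaving out each library (cocaine then without the sex covariate); gated nuclei in clusters of the same name, and 5 further random seeds of the clustering, were added after seeing the data. Overlapping genes cannot be separated without the strand setting: 10 members overlap a protein-coding RefSeq gene (Gng3, Gng5, Gnat2, Gnai3, Rgs20, Rgs6, Rgs7, Rgs12, Gnal and Gnaz). Members with values in every library were those called with cocaine or in the interaction, the 8 largest differences each way between D2-MSN and D1-MSN, up to 3 leading members of each other type, and members fixed by role; others named were chosen after their values were seen. The members and lists were chosen with earlier results of these data known.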

Additional observations from a re-analysis of the deposited data

Results flagged for a closer look

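Some members were above every tested type in nuclei that had too few per library to test. Values are CPM of UMIs pooled over the 4 libraries without scaling, each member having at least 1 UMI in every library, and the number of nuclei limits them. In 78 cholinergic interneurons Rgs17 reached 313.954 CPM, against 231.045 in eccentric MSN. In the same nuclei Rgs7bp reached 520.982 CPM (455.465 in D2-MSN), Rgs11 149.015 CPM (111.459 in Sst interneurons) and Gng3 63.7009 CPM (54.4723 in Sst interneurons). Rgs12 was at 94.4138 CPM there and at 52.4938 CPM in 243 glutamatergic neurons, against 45.0438 in astrocytes. Glutamatergic neurons also had the higher Rgs18 value, 3.72296 CPM from 10 UMIs (1.82865 in microglia), and a Rgs4 value of 7.07363 CPM from 19 UMIs (5.72567 in D2-MSN).

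In 54 vascular nuclei Rgs5 reached 2167.49 CPM from 132 UMIs, against 0.413813 in eccentric MSN. Rgs6 was at 1346.47 CPM there from 82 UMIs (770.81 in astrocytes), and Rgs4 at 246.305 CPM from 15 UMIs. Gng12 was at 377.668 CPM (287.637 in oligodendrocyte precursors), Gng11 at 229.885 CPM from 14 UMIs (6.15056 in astrocytes) and Gnai2 at 213.465 CPM from 13 UMIs (140.806 in microglia).

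In eccentric MSN the log2 ratio of cocaine to saline for Gng2 was -0.57656 in females and 0.0559864 in males, each from 1 library per treatment. The directions were opposite, and the difference between the sexes was not tested.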

How the results depend on the processing

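With 2 pooled libraries a treatment, the cocaine results are the least settled. The count of member calls with cocaine was 1; it was 2 with RLE scaling, 2 without doublet removal, 2 with clusters in place of the gate, and 0 with the stricter gate, with DESeq2 and without the sex covariate. Over all genes 465 tests passed; 636, 270, 680, 239, 11 and 37 did under these 6 settings in that order. Leaving out 1 library gave 1 to 4 calls: 4 when the saline male library was dropped and 2 when the saline female library was; over all genes 155 to 639 tests passed. Gng2 in D1-MSN passed in 5 settings, with RLE scaling at -1.02 (adjusted p = 0.00164). The cluster-based values depend on the random seed of the clustering: over 6 seeds Gna14 in Pthlh interneurons passed in 4. The stricter gate left too few Pthlh nuclei to test. Between the effects in D2-MSN and D1-MSN the count of 0 became 1 without the low-count filter (Rgs20) and 0 to 2 when 1 library was left out; over all genes 6 became 87 and 20 to 121. Of the members lower in D2-MSN, 9 became 5 with DESeq2, and the Gng2 difference reversed to 0.29 with the stricter gate and, with gated nuclei in clusters of the same name, to 0.059, 0.10 and 0.022 under 3 of 6 seeds. Members lower in Sst interneurons went from 6 to 11 without doublet removal. The cause of these changes was not tested. The other 213 alternative counts lay within 1.5 times the main count. The sex covariate pairs the libraries of the treatments by sex. No paired analysis was possible beyond this, because the labels number no replicates; between types the library was the block.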
